A study of Homo sapiens with 8 samples.

Results

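The genes described here had fitted caffeine changes of the same sign in SW480 and in SW620, a pair of human colorectal adenocarcinoma cell lines. A gene was taken as a member when an additive fit of line and treatment over 4 caffeine and 4 control libraries called it, when its fitted change had the same sign in each line, and when counts supported it in each line. Called means an adjusted p under 0.05 in edgeR's quasi-likelihood test, adjusted over all genes tested, and support means at least 10 counts in both libraries of the higher group of each line. Of 17671 genes tested, 594 (3.36%) were called in the additive fit, 49 of these had opposite signs in the lines and 96 had the same sign without that support. The remaining 449 genes (2.54% of those tested) are the shared response, with 222 higher (1.26%) and 227 lower (1.28%) with caffeine. Membership does not require a call within either line, and 268 of the 449 were called within SW620 only. The values of these libraries chose the members, so the counts of members called or separated within a line describe the choice and are not independent evidence.

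Poly-A RNA was sequenced in 8 libraries that form 4 groups of 2, a control and a caffeine group for each line. SW480 was derived from a primary tumour and SW620 from a lymph node metastasis of the same patient, so the lines share a genetic background and are no random pair of tumours. Both lines, treated or not, carried a fluorescent B8-mCherry fusion, which labels the immunoproteasome subunit PSMB8. The labels give caffeine doses of 30, 60, 100, 250 and 500 µM for 72 hours and of 125 µM for 28 days for SW620 cultures, and do not say which of these the sequenced libraries received, nor the dose for SW480. The replicates are called biological in the labels, without a statement of culture day or batch, so p-values measure the spread between these libraries only.

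Caffeine is a methylxanthine that blocks adenosine receptors and, at higher concentrations, inhibits cyclic AMP phosphodiesterases, releases calcium through ryanodine receptors and inhibits the checkpoint kinases ATM and ATR. Effects common to a pair of lines can arise along any of these routes or downstream of them, for example through the cell cycle. Replication-dependent histone genes, several of which are members here, supply the chromatin of S phase, lie in clusters and share promoter elements such as the CCAAT box bound by NF-Y, and most of their transcripts end in a stem-loop in place of a poly(A) tail.

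Libraries held 15760259 to 23269315 reads assigned to genes, and a gene with 0 counts could still have up to 3 at 95%, which equalled 0.129 to 0.190 CPM per library and covers counting error only. CPM is the count scaled by the library total, levels below are CPM after TMM scaling, and changes are log2 fold changes (caffeine over control) with their standard error (SE). The first principal component separated the lines and held 89.4% of the variance. In SW480 caffeine replicate 2 mitochondrial transcripts made up 1.63% of assigned reads, against 4.38% to 6.16% in the other libraries, and the part of this in the shared response was not tested beyond leaving that library out. KRT8, KRT18 and EPCAM, markers of colorectal epithelium, had at least 2442 counts in each library, while CDX1 had 0 and CDH1 had as few as 2. Among the markers of other cell types, COL3A1 (fibroblasts), MS4A1 (B cells), ERG and EMCN (endothelium) had 0 counts in all libraries and PTPRC, the leukocyte antigen CD45, had 1 in total. Other markers of these lists were detected, among them LUM with 2383 counts over the 8 libraries (0 to 666 in a library), COL1A1 with 1040, PECAM1 with 673, VWF with 382, CD4 with 326 and PDGFRB with 309, and their part in the results was not tested.

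The 4 histone genes of the shared response that were called within each line are shown first, since the histone results turn on them. The sequences are the 150 bases before the RefSeq start of each gene (GRCh38.p14, gene strand, 5′ to 3′). Capitals mark the CCAAT box, read as CCAAT or as its reverse complement ATTGG, and the cAMP response element TGACGTCA. They lie at chr6:27146859-27147008 on the minus strand for H2BC12, chr6:26124022-26124171 on the plus strand for H2AC6, chr6:26056471-26056620 on the minus strand for H1-2 and chr6:26285535-26285684 on the minus strand for H4C8.
H2BC12: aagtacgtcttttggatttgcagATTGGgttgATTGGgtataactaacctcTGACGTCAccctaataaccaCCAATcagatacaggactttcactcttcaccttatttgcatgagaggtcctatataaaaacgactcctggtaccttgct
H2AC6: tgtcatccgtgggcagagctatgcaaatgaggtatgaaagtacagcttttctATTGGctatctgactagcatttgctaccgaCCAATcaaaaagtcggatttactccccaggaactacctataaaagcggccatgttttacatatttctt
H1-2: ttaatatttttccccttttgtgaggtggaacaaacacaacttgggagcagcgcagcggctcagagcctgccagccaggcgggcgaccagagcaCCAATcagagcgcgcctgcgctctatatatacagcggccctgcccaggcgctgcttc
H4C8: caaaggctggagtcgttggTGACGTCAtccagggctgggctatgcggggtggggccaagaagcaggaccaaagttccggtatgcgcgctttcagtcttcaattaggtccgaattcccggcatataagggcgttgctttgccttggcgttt
H2BC12 holds 3 CCAAT boxes and a cAMP response element in this stretch, H2AC6 holds 2 CCAAT boxes and H1-2 holds 1. H4C8 holds the cAMP response element and none of the CCAAT letters in this window. A match of letters describes the sequence and does not show that a factor binds there.

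Agreement between the lines was limited. The fitted changes had the same sign in 8911 of the 17671 tested genes (50.4%), and across genes the changes in the lines correlated with Pearson's r of 0.059 and Spearman's rho of 0.066, where genes are not independent replicates. Caffeine against control gave 636 called genes within SW480 (3.6%) and 2537 within SW620 (14.4%). The fitted change had the same sign in the other line for 356 of the SW480 calls (56%) and 1369 of the SW620 calls (54%). Genes called in each line in the same direction and supported by counts numbered 101 (0.572%), 42 higher (0.238%) and 59 lower (0.334%). This is 15.9% of the SW480 calls and 3.98% of the SW620 calls. In opposite directions 64 genes were called, 40 of them lower in SW480 and higher in SW620.

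**Figure D1:**
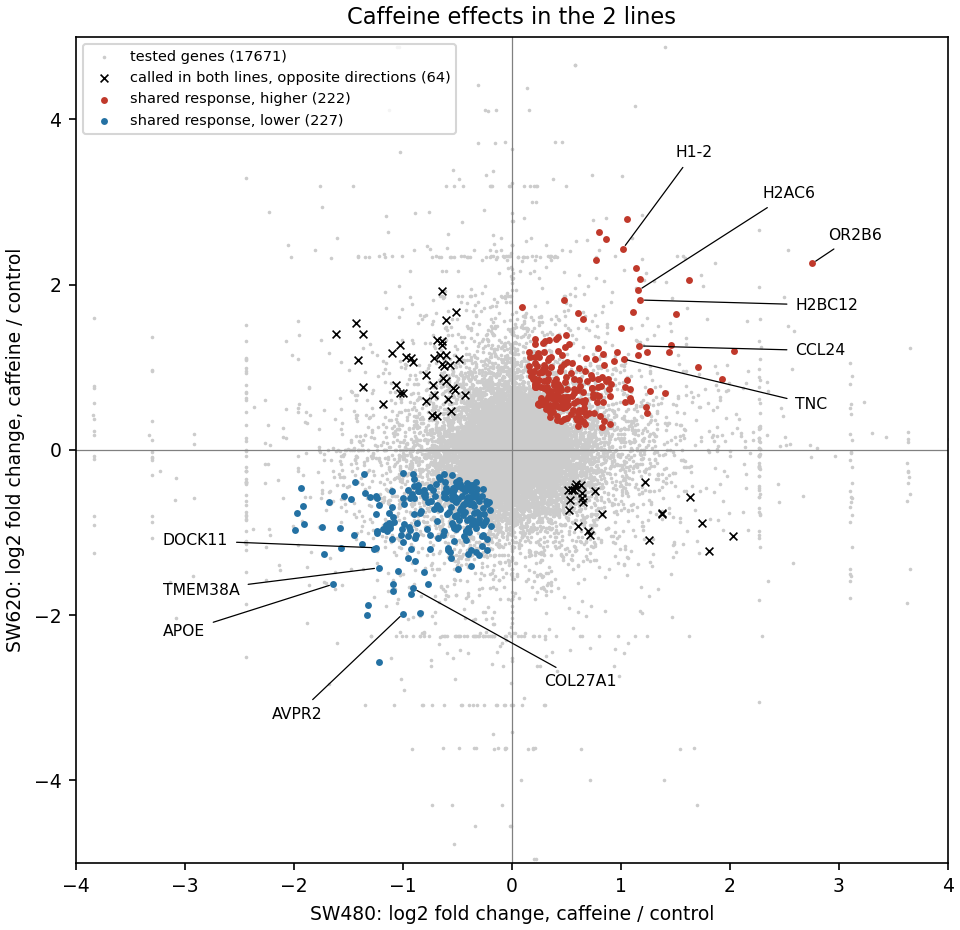
Each point is a tested gene, with its log2 fold change (caffeine over control) in SW480 on the x axis and in SW620 on the y axis; red and blue points are the 222 higher and 227 lower members of the shared response, crosses are the 64 genes called in each line in opposite directions, and grey points are the 17671 tested genes. The grey cloud has little tilt towards the diagonal, and most coloured points lie further from 0 on the SW620 axis than on the SW480 axis.

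Among the 449 members, 100 were called within each line (41 higher, 59 lower), 268 (59.7%) within SW620 only, 64 (14.3%) within SW480 only and 17 within neither. The additive changes of the members that rose ran from 0.37 to 2.34 with a median of 0.63, and the medians of their within-line changes were 0.49 in SW480 and 0.76 in SW620. Members that fell ran from -1.75 to -0.36 with a median of -0.68, and their medians were -0.60 in SW480 and -0.73 in SW620. Past a size of 1 lay 33 risers and 45 fallers. Caffeine and control libraries did not overlap within either line in 430 members (95.8%), against 14.7% of all tested genes, a share that the choice of members raises. At the threshold, CCDC9 (adjusted p = 0.0495) and S100A5 (0.04997) were just inside and CNTROB (0.0501) and H2BC11 (0.0502) just outside.

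Replication-dependent histone genes were among the largest risers of the shared response. H2BC12, an H2B gene, had 15.1 and 16.2 CPM in the SW480 controls and 34.8 and 36.1 with caffeine, and 28.4 and 27.2 CPM in the SW620 controls and 104 and 91.1 with caffeine. Every caffeine library lay above every control library of its line, and the additive change was 1.51 (SE 0.13, adjusted p = 8.02e-05). H2AC6, an H2A gene, went from 9.50 and 11 to 25.3 and 20.9 CPM in SW480 and from 42.3 and 46.7 to 174 and 165 CPM in SW620 (additive change 1.58, SE 0.15, adjusted p = 8.02e-05). The SW620 change of H2AC6, 1.93, was larger than the SW480 change of 1.16 (difference 0.77, adjusted p = 0.0298). H4C8, an H4 gene, rose from 1.39 and 1.05 to 2.64 and 2.81 CPM in SW480 and from 3.54 and 2.76 to 7.56 and 6.44 CPM in SW620, by 1.16 (SE 0.29, adjusted p = 0.0361) and 1.15 (SE 0.22, adjusted p = 0.00221), so that its lines differed by -0.01 (SE 0.31). Each of these 3 genes kept its additive call with any single library left out.

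The linker histone gene H1-2 rose in each line, from 37.7 and 57.6 to 109 and 84.7 CPM in SW480 (1.02, SE 0.19, adjusted p = 0.00974) and from 69.5 and 80.0 to 469 and 339 CPM in SW620 (2.43, SE 0.19, adjusted p = 4.83e-07). Its additive call (adjusted p = 0.0326) was lost without SW480 control replicate 1, without either SW620 control library or without SW620 caffeine replicate 2, with an adjusted p of up to 0.158. H2BC11, another H2B gene, was called in each line yet missed the additive threshold: it had 4.66 and 6.71 against 13.3 and 9.96 CPM in SW480 and 2.99 and 3.66 against 32.9 and 33.1 CPM in SW620. Its change was 1.01 in SW480 and 3.31 in SW620, a difference of 2.29 (SE 0.29, adjusted p = 0.000154). H2AC8 was the fifth member, with 9 counts in the SW480 controls together and 29 with caffeine, a ratio of 2.80 (95% exact counting interval 1.29 to 6.73), and its additive call was lost without SW480 caffeine replicate 1 or any of the 4 SW620 libraries (adjusted p up to 0.151).

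Of 30 histone genes tested, 5 were in the shared response and all 5 were higher, against 1.26% of all tested genes higher. The change was positive in 21 of the 30 in SW480 and in 28 in SW620. Within SW480 5 were called higher and 0 lower, and within SW620 19 higher and 0 lower. Of all tested genes 3.6% were called in SW480 in either direction and 8.1% were called higher in SW620. Over all 30 the median changes were 1.23 in the additive fit, 0.46 in SW480 and 1.59 in SW620. Over all tested genes these medians were -0.0035, 0 and -0.011. With a library left out the number of shared histone genes ran from 3 (without either SW620 control or SW620 caffeine replicate 2) to 9 (without SW480 caffeine replicate 1). Histone genes are near-identical copies whose reads can be split or discarded in counting, and a poly-A library captures only the tailed part of their RNA, so the values are uncertain as measures of total histone mRNA.

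The histone list of chromosome 6 lies at 26055787 to 27893843 (GRCh38), and other genes within 100000 bases of that span were counted after the values were seen. Shared risers made up 1.26% of all tested genes. Of 24 histone genes tested in this region 5 were shared risers, and of 23 other genes 2 were, with none lower in either set. One of the latter was OR2B6, an olfactory receptor gene at 27957241 to 27958182, which had 24 and 16 counts in the SW620 controls and 93 and 83 with caffeine, a change of 2.26 (SE 0.30, adjusted p = 9.62e-05). In SW480 it had 3 counts in the controls together and 25 with caffeine, a ratio of 7.25 (95% exact counting interval 2.21 to 37.5). The other was the long noncoding RNA ENSG00000272468 at 27122657 to 27123221 on the minus strand, with 0.726 and 1.17 against 1.74 and 2.17 CPM in SW480 and 1.37 and 1.60 against 11.2 and 9.51 CPM in SW620. Its additive change was 2.14 (SE 0.30, adjusted p = 0.00276), and its SW480 change alone was not called (1.06, SE 0.32, adjusted p = 0.0847).

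Apart from histones, 4 risers stayed called in each line with any single library left out. TNC, which encodes the matrix glycoprotein tenascin-C, had 7.56 and 8.35 CPM in the SW480 controls and 16.6 and 15.8 with caffeine, and 168 and 173 CPM in the SW620 controls and 351 and 379 with caffeine. Its level thus differed widely between the lines while its change was 1.03 (SE 0.14) in SW480 and 1.10 (SE 0.11) in SW620 (additive adjusted p = 8.02e-05). CCL24, the chemokine eotaxin-2, rose from 8.05 and 8.29 to 19.4 and 17.5 CPM in SW480 and from 1.57 and 1.65 to 4.29 and 3.47 CPM in SW620, by 1.17 (SE 0.17) and 1.26 (SE 0.23), with an additive adjusted p of 0.000849. DPYSL3, a cytoskeletal regulator of the dihydropyrimidinase-like family, went from 63.8 and 65.1 to 118 and 121 CPM in SW480 and from 72.4 and 72.8 to 115 and 127 CPM in SW620 (additive change 0.81, SE 0.09, adjusted p = 0.000483). C1orf116 went from 66.3 and 61.2 to 108 and 103 CPM and from 84.7 and 87.2 to 160 and 162 CPM (0.82, SE 0.09, adjusted p = 0.000478). No library of these 4 genes overlapped between treatments in either line. DPYSL3 and C1orf116 lie outside the naming rule and were chosen with their values known, since they belong to the 12 genes of either direction that passed this check.

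ID1, a dominant-negative partner of basic helix-loop-helix factors, rose from 5.99 and 6.77 to 10.6 and 14.1 CPM in SW480 and from 30.6 and 28.0 to 72.7 and 61.0 CPM in SW620 (additive change 1.09, SE 0.13, adjusted p = 0.000557). Its relative ID2, named for that contrast after its values were seen, went the other way, with 182 and 184 against 112 and 89.5 CPM in SW480 and 63.9 and 62.8 against 49.1 and 45.1 CPM in SW620 (-0.65, SE 0.12, adjusted p = 0.0092). RAET1L, which encodes a ligand of the natural killer receptor NKG2D, had 1.57 and 2.10 against 3.48 and 3.28 CPM in SW480 and 2.68 and 2.15 against 13.7 and 14.7 CPM in SW620. The rise of RAET1L was 1.69 larger in SW620 (SE 0.33, adjusted p = 0.00566), and its SW480 change of 0.87 was not called on its own (SE 0.25, adjusted p = 0.0634). Other large risers with similar changes in the lines were TLDC2 (1.24 in SW480 and 1.18 in SW620), METTL27 (0.94 and 1.08), MXRA8 (1.05 and 0.85) and ARHGAP33 (0.88 and 0.85), each kept with any library left out. TLDC2 shares 1159 of its 2553 exon bases with SAMHD1 on the opposite strand, and the strand setting of the counting is not given.

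APOE, which encodes the lipid carrier apolipoprotein E, had the largest fall among the genes called in each line with any library left out. It had 33.4 and 41.4 CPM in the SW480 controls and 10.2 and 13.6 with caffeine, and 9.67 and 11.2 CPM in the SW620 controls and 3.93 and 2.87 with caffeine. The fall was -1.64 (SE 0.18, adjusted p = 0.000114) in SW480 and -1.63 (SE 0.21, adjusted p = 8.82e-05) in SW620. TMEM38A, a potassium channel of calcium-storing membranes, fell from 9.62 and 11 to 4.18 and 4.60 CPM in SW480 and from 9.16 and 8.87 to 2.98 and 3.67 CPM in SW620 (additive change -1.32, SE 0.15, adjusted p = 0.000467). DOCK11, an activator of the small GTPase CDC42, went from 33.3 and 29.8 to 15 and 11.8 CPM and from 6.48 and 6.46 to 2.98 and 2.72 CPM (-1.22, SE 0.14, adjusted p = 0.000426). These 3 genes changed by nearly equal amounts in the lines, with differences of 0.01 (SE 0.32), -0.21 (SE 0.27) and 0.06 (SE 0.26).

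PNPLA7, a lysophospholipase, had 44.8 and 37.9 against 16 and 23.8 CPM in SW480 and 16.9 and 14.5 against 6.31 and 5.03 CPM in SW620 (additive change -1.24, SE 0.16, adjusted p = 0.000849). COL27A1, a fibrillar collagen gene named after its values were seen, had 38.2 and 31.2 against 16.5 and 20.4 CPM and 30.8 and 27.4 against 9.11 and 9.06 CPM (-1.28, SE 0.16, adjusted p = 0.000849), a fall that was larger in SW620 (difference -0.77, SE 0.22, adjusted p = 0.0448). CCN1, a matricellular protein and a target of the YAP and TEAD factors, had 56.8 and 56.5 against 29.8 and 31.6 CPM in SW480 and 19.2 and 20.3 against 10.1 and 9.31 CPM in SW620 (-0.95, SE 0.11, adjusted p = 0.000426). In all 3, treated and control libraries stood apart in each line. AVPR2, the vasopressin receptor that signals through cyclic AMP, went from 16.4 and 9.69 to 5.99 and 6.98 CPM in SW480 and from 5.92 and 5.76 to 1.43 and 1.51 CPM in SW620 (-1.40, SE 0.22, adjusted p = 0.00526), and the interleukin 3 receptor gene IL3RA changed by -1.23 (SE 0.24) and -0.98 (SE 0.18). The interleukin 11 receptor gene IL11RA changed by -1.27 (SE 0.31) and -1.20 (SE 0.23), but 744 of its 4271 exon bases are shared with neighbouring genes on its strand, among them the faller ENSG00000258728, so these are uncertain as separate genes.

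**Figure D2:**
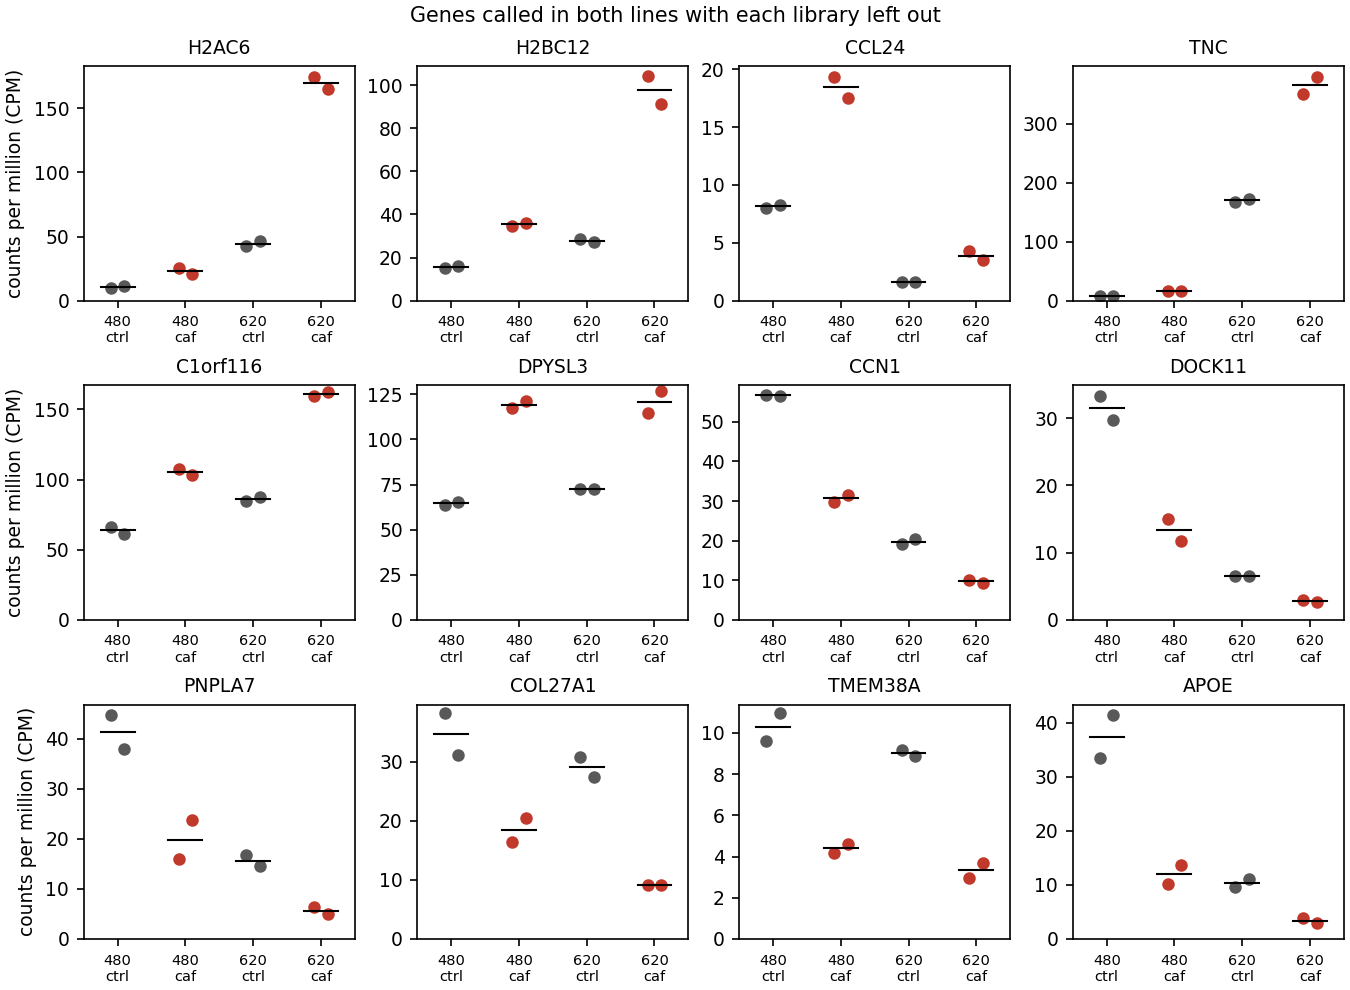
Levels in CPM after TMM scaling of the 12 genes that stayed called in each line with any single library left out; points are libraries (grey control, red caffeine), bars are group means of 2 libraries, and each panel has its own axis from 0. In each panel the caffeine points lie on the same side of the control points in both lines, for example from 10.2 to 13.6 CPM against 33.4 to 41.4 for APOE in SW480.

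The G2/M and mitosis list held more shared genes than any other list. Of its 34 tested genes 12 were in the shared response, all higher, against 1.26% of all tested genes, and over all 34 the medians were 0.40 in the additive fit, 0.15 in SW480 and 0.70 in SW620. Within SW620 28 of the 34 were called higher (8.1% of all tested genes were), and within SW480 none was called by edgeR, DESeq2 or limma-voom, with 7 higher and 1 lower at an unadjusted p under 0.05. CDC20, an activator of the anaphase-promoting complex, had 171 and 215 against 248 and 275 CPM in SW480 and 89.8 and 84.4 against 171 and 166 CPM in SW620 (additive change 0.69, SE 0.12, adjusted p = 0.00806). CDC25C, the phosphatase that activates CDK1, had 29.6 and 32.6 against 39.97 and 42.2 CPM and 8.70 and 8.67 against 23.9 and 20.2 CPM, and its rise was 0.94 larger in SW620 (SE 0.20, adjusted p = 0.00917). TPX2 and KIF2C, both spindle proteins, rose by 0.52 (SE 0.11) and 0.51 (SE 0.11), and the rest were CCNB1, PLK1, TOP2A, UBE2C, PTTG1, HMMR, DLGAP5 and NEK2, from 0.40 to 0.61. Of these 8 the rise of DLGAP5 was larger in SW620 by 0.86 (adjusted p = 0.00753) and that of HMMR by 0.67 (adjusted p = 0.0487). In CDC20 and CDC25C treated and control libraries did not overlap in either line.

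This mitotic count depended on the SW620 libraries. Without SW620 control replicate 1, control replicate 2 or caffeine replicate 1 a single G2/M gene was left in the shared response and without caffeine replicate 2 there were 2, while without an SW480 library there were 9 to 18 (18 without control replicate 1). CDC20 stayed called in each of these fits; CDC25C was lost without either SW620 control or SW620 caffeine replicate 1 (adjusted p up to 0.0664), and TPX2 and KIF2C without any of the 4 SW620 libraries (up to 0.105 and 0.128). Each of the 8 others was also lost without any of the 4 SW620 libraries, and 6 of them, all but DLGAP5 and PLK1, without at least 1 SW480 library. Among 40 tested genes of DNA replication and nucleotide synthesis, 2 were shared risers and none fell, against 1.26% higher of all tested genes. RRM2, a subunit of ribonucleotide reductase, rose by 0.50 (SE 0.12, adjusted p = 0.0312) in SW480 and 0.52 (SE 0.12, adjusted p = 0.00851) in SW620. Its additive call was lost without SW620 control replicate 1 or caffeine replicate 1 (adjusted p up to 0.0631), and 1077 of its 5323 exon bases are shared with another gene on its strand. The other was the thymidine kinase gene TK1 (0.53, SE 0.12, adjusted p = 0.0304), lost without any SW620 library or SW480 caffeine replicate 2 (up to 0.118). The medians of this list were 0.24 in SW480 and -0.24 in SW620.

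Glycolysis and hypoxia genes made up the next group of shared risers, with 8 of 38 tested genes higher and none lower, against 1.26% of all tested genes higher. Within SW620 34 of the 38 were called higher and 1 lower. In SW480 none was called by edgeR, DESeq2 or limma-voom, with 9 higher and 2 lower at an unadjusted p under 0.05. Over all 38 the medians were 0.62 in the additive fit, 0.074 in SW480 and 0.99 in SW620, and 24 of the 38 differed between the lines (6.71% of all tested genes did). CA9, the carbonic anhydrase induced under low oxygen, had 17.8 and 18.2 against 21.1 and 28.1 CPM in SW480 and 165 and 142 against 357 and 322 CPM in SW620 (additive change 0.83, SE 0.14, adjusted p = 0.00805), and kept its call with any library left out. HK2, the hexokinase of the first glycolytic step, had 88.1 and 85.8 against 105 and 114 CPM and 97.8 and 92.0 against 173 and 187 CPM, and its rise was 0.59 larger in SW620 (SE 0.16, adjusted p = 0.0403). TPI1, triose phosphate isomerase, changed by 0.41 (SE 0.16, adjusted p = 0.156) in SW480 and 0.86 (SE 0.16, adjusted p = 0.00146) in SW620. In SW480 the caffeine libraries of these 3 genes lay above the controls by a margin that was not called. For CA9, 643 of 1670 exon bases are shared with ARHGEF39 on the opposite strand, and the strand setting of the counting is not given. The glucose transporter gene SLC2A1 (additive change 0.67, SE 0.17), PDK1, GPI and PFKL completed the group with ALDOA, whose level is uncertain because 1657 of its 3916 exon bases are shared with a gene on its strand.

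The number of shared glycolysis and hypoxia genes was 1 without either SW620 control or SW620 caffeine replicate 1, 3 without SW620 caffeine replicate 2, and 7 to 12 without an SW480 library, the 12 without caffeine replicate 1. HK2 and TPI1 were lost without either SW620 control or SW620 caffeine replicate 1, with an adjusted p of up to 0.0737 and 0.0932. SLC2A1, PDK1, GPI and PFKL were lost without any of the 4 SW620 libraries, SLC2A1 also without SW480 control replicate 1 and PFKL without SW480 caffeine replicate 2. The rise was larger in SW620 by 1.03 for SLC2A1 (adjusted p = 0.00207), 0.84 for PDK1 (adjusted p = 0.00964) and 0.78 for GPI (adjusted p = 0.0109). Of 25 tested genes of the unfolded protein response 3 were shared risers and none fell, against 1.26% higher of all tested genes. The list medians were 0.12 in SW480 and 0.38 in SW620. By edgeR 11 of the 25 were called higher within SW620 (8.1% of all tested genes were) and none within SW480. HSPA5, the chaperone BiP of the endoplasmic reticulum, had 699 and 803 against 815 and 887 CPM in SW480 and 545 and 535 against 1014 and 987 CPM in SW620. Its SW480 change of 0.18 was not called (SE 0.12, adjusted p = 0.449) and its SW620 change of 0.89 was (SE 0.12, adjusted p = 0.000153), with a difference of 0.71 (adjusted p = 0.0215). HYOU1 and PDIA4, also folding factors of that compartment, had additive changes of 0.53 (SE 0.11) and 0.41 (SE 0.10). None of the 3 was left without either SW620 control or SW620 caffeine replicate 2, and HYOU1 alone was left without SW620 caffeine replicate 1 or SW480 caffeine replicate 2.

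Interferon-stimulated genes went in both directions. Of 33 tested, 5 were shared fallers and 2 shared risers, against 1.28% lower and 1.26% higher of all tested genes. At an unadjusted p under 0.05 with the same sign and support 11 were lower and 3 higher. These shares were 7.23% lower and 7.45% higher over all tested genes. Over all 33 the medians were -0.13 in SW480 and -0.26 in SW620. IFIT2, an RNA-binding antiviral protein, had 1.57 and 1.52 against 0.322 and 0.468 CPM in SW480 and 7.54 and 7.62 against 4.17 and 3.98 CPM in SW620, with changes of -1.90 (SE 0.36, adjusted p = 0.0112) and -0.90 (SE 0.20, adjusted p = 0.00654). OAS1, which makes 2′-5′ oligoadenylate on viral RNA, had 13.6 and 14.4 against 9.53 and 6.73 CPM and 60.5 and 61.1 against 45.1 and 38.1 CPM (additive change -0.66, SE 0.13, adjusted p = 0.0147). IFIT3, OAS2 and the RNA sensor IFIH1 had additive changes of -0.73, -0.71 and -0.49. These 3 calls were lost in most of the fits with a library left out. IFIH1 lost its call whichever library was left out, IFIT3 without 6 of the 8 libraries and OAS2 without 5. The number of shared fallers was 5 without SW480 control replicate 1, 2 without SW620 control replicate 2 and 3 without each other library, and that of shared risers ran from 1 to 3. ISG20, an exonuclease of single-stranded RNA, rose from 2.84 and 2.98 to 5.28 and 4.85 CPM in SW480 and from 10.3 and 9.22 to 23.8 and 22.1 CPM in SW620 (1.05, SE 0.15, adjusted p = 0.00238). IRF7, the factor that drives type I interferon genes, rose by 0.89 (SE 0.17, adjusted p = 0.0149) and was lost without either SW620 control or SW620 caffeine replicate 1 (adjusted p up to 0.0682). IFIT2, OAS1 and ISG20 kept their calls with any library left out, and 356 of the 4101 exon bases of IFIT2 are shared with another gene on its strand.

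The series asks about the immunoproteasome, and none of its catalytic subunits was in the shared response. PSMB8 had 24.7 and 35.6 against 23.5 and 28.0 CPM in SW480 and 36.0 and 33.3 against 24.1 and 26.1 CPM in SW620 (additive change -0.35, SE 0.13, adjusted p = 0.156), and its reads can also come from the B8-mCherry fusion. PSMB10 had an additive change of -0.18 (SE 0.18, adjusted p = 0.631). PSMB9 moved apart in the lines, with 11 and 12.1 against 13.9 and 14.9 CPM in SW480 (0.32, SE 0.16, adjusted p = 0.272) and 7.44 and 8.02 against 3.27 and 3.57 CPM in SW620 (-1.17, SE 0.18, adjusted p = 0.000456). Of 22 tested genes of the immunoproteasome and MHC class I presentation 2 were shared fallers and none rose (0 at an unadjusted p under 0.05, by DESeq2 and by limma-voom). Of all tested genes 1.28% were shared fallers and 1.26% shared risers, so the lack of a riser among 22 genes says little. HLA-B, a class I heavy chain, had 97.2 and 115 against 81.0 and 83.4 CPM in SW480 and 193 and 187 against 109 and 94.1 CPM in SW620 (-0.64, SE 0.12, adjusted p = 0.0132), lost without SW620 caffeine replicate 1 (adjusted p = 0.0567). Its reads may be shared with other class I genes. NLRC5, the transactivator of class I genes, had an additive change of -0.46 (SE 0.12, adjusted p = 0.0468) and lost its call whichever library was left out (adjusted p 0.0573 to 0.190). For 14 genes of the constitutive 20S proteasome no member was in the shared response, against 2.54% of all tested genes. There was 1 higher at an unadjusted p under 0.05 and none by DESeq2 or limma-voom.

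Lists that stand for the known targets of caffeine were read beside the share over all tested genes, of which 2.54% were in the shared response. At that share a short list can lack members, so low counts here say little about these targets. Of 36 tested cyclic AMP, CREB and immediate early genes only CCN1, described above, was in the shared response. In the lists of adenosine receptors and handling (13 tested), calcium release and pumps (17) and ATM and ATR checkpoint and repair (31) edgeR called no shared gene. At an unadjusted p under 0.05 with the same sign and support these lists held 1, 2 and 4 genes higher and 3, 3 and 1 lower, against 7.45% higher and 7.23% lower of all tested genes. DESeq2 called 0, 1 lower and 1 higher in them, and limma-voom called none. CYP1A1, the cytochrome P450 of the aryl hydrocarbon receptor pathway, had 5.69 and 5.95 against 2.64 and 2.34 CPM in SW480 and 1.47 and 0.902 against 0.774 and 0.805 CPM in SW620. It was the only shared gene of 8 tested in its list (-1.01, SE 0.23, adjusted p = 0.0293), with a SW620 change of -0.58 that was not called (SE 0.36, adjusted p = 0.317). The additive call of CYP1A1 was lost without SW480 control replicate 2, either SW480 caffeine library, SW620 control replicate 1 or SW620 caffeine replicate 1 (adjusted p up to 0.0924).

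Genes of the ATF4 and amino acid response list moved differently in the lines. Of 36 tested genes 32 had a positive change in SW480 and 13 in SW620, and 11 had the same sign in each line (50.4% of all tested genes did). Within SW480 11 were called higher and 0 lower, and within SW620 2 were called higher and 12 lower. The difference between the lines was called in 16, against 6.71% of all tested genes. Shared risers numbered 2, against 1.26% of all tested genes, and shared fallers 0. DDIT4, an inhibitor of mTORC1, had 50.2 and 57.7 against 100.1 and 101 CPM in SW480 and 717 and 708 against 929 and 837 CPM in SW620, a rise that was 0.59 smaller in SW620 (SE 0.17, adjusted p = 0.0479). TRIB3, a pseudokinase that restrains ATF4, changed by 0.61 (SE 0.13, adjusted p = 0.0193) in SW480 and 0.29 (SE 0.13, adjusted p = 0.158) in SW620, and its additive call was lost whichever library was left out (adjusted p 0.0535 to 0.0961). DDIT4 lost its call without SW620 caffeine replicate 1 (adjusted p = 0.052). None of 20 cytosolic tRNA synthetase genes was a member, by edgeR, DESeq2 or limma-voom, with 3 higher at an unadjusted p under 0.05. By edgeR 2.54% of all tested genes were members.

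Some genes of the intestinal epithelium were among the fallers. Of 14 tested genes of intestinal differentiation 3 were shared fallers and none was a shared riser, against 1.28% and 1.26% of all tested genes. The list as a whole did not fall in each line, with medians of 0.076 in the additive fit, -0.13 in SW480 and 0.15 in SW620. In the additive fit 2 of the 14 were called higher and 4 lower, and 8 had a positive change in SW620. MUC13, a transmembrane mucin, had 12.1 and 8.87 against 4.63 and 3.07 CPM in SW480 and 165 and 160 against 108 and 107 CPM in SW620, and it fell more in SW480 (difference 0.88, SE 0.25, adjusted p = 0.0448). CEACAM1, a cell adhesion molecule, had 31.1 and 22.5 against 12.3 and 7.79 CPM and 28.2 and 32.8 against 23.8 and 22.8 CPM, also with the larger fall in SW480 (difference 1.05, SE 0.27, adjusted p = 0.028). CDX2, a homeobox factor that specifies intestine, had 141 and 142 against 108 and 106 CPM in SW480 and 134 and 128 against 80.0 and 87.9 CPM in SW620 (additive change -0.53, SE 0.10, adjusted p = 0.0104). MUC13 kept its call with any library left out; CDX2 was lost without SW620 control replicate 1 or caffeine replicate 1 (adjusted p up to 0.0584), and CEACAM1 without SW480 control replicate 2, either SW480 caffeine library, SW620 control replicate 2 or either SW620 caffeine library (up to 0.0923). LGR5, the receptor that marks intestinal stem cells, had 7.14 and 6.77 against 5.86 and 5.45 CPM in SW480 and 116 and 114 against 42.7 and 52.3 CPM in SW620. It was the only shared gene of 24 tested in the Wnt and stem cell list, its fall was 0.97 larger in SW620 (SE 0.22, adjusted p = 0.0127), and its call was lost without either SW620 caffeine library (adjusted p up to 0.0776). KRT19, a keratin of simple epithelia, rose from 315 and 422 to 488 and 592 CPM in SW480 and from 775 and 760 to 1748 and 1436 CPM in SW620 (0.80, SE 0.14, adjusted p = 0.00751). The SW480 change of KRT19, 0.55, was not called on its own (adjusted p = 0.0594).

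Single members came from further lists. With 1.26% of all tested genes higher and 1.28% lower in the shared response, 1 or 2 members describe those genes and not their list. ICAM1, an adhesion molecule induced by NF-kB, had 30.3 and 28.1 against 18.3 and 18.4 CPM in SW480 and 2.63 and 2.91 against 1.67 and 1.71 CPM in SW620 (additive change -0.68, SE 0.13, adjusted p = 0.0149), and its call was lost without SW620 control replicate 2 or caffeine replicate 1 (adjusted p up to 0.0625). RRAGD, a GTPase of the lysosomal mTORC1 machinery, had 74.4 and 71.2 against 45 and 43.6 CPM and 13.2 and 12 against 7.32 and 7.95 CPM, a change of -0.72 in each line, kept with any library left out. In addition, 5 further shared genes each lost their call without any 1 of the 4 SW620 libraries: the stress kinase gene PLK3 (1 of 23 p53 targets, additive change 0.53), the ERK-induced gene PHLDA1 (1 of 23 ERK feedback genes and EGF-family ligands, 0.43), the plasminogen activator gene PLAU (1 of 18 mesenchymal and invasion genes, 0.99), the tight junction gene CLDN7 (1 of 23 epithelial adhesion genes, -0.55) and the lysosomal protease gene CTSA (with RRAGD 2 of 34 autophagy and lysosome genes, -0.36). The highest adjusted p among these fits was 0.200. Calls were lost without SW480 libraries as well, for CLDN7 and CTSA without control replicate 2 or either caffeine library, for PLK3 without control replicate 1 or caffeine replicate 1, and for PHLDA1 without caffeine replicate 1. The repressor gene HES7 (1 of 21 in the Notch list) changed by -0.87 (SE 0.15, adjusted p = 0.0084) in the additive fit. Its SW480 change was -0.90 (adjusted p = 0.00335), and its SW620 change of -0.77 was not called (adjusted p = 0.161). COL1A1, a collagen gene listed as a fibroblast marker, had 3.21 and 2.98 against 2.96 and 4.43 CPM in SW480, which overlap, and 6.33 and 5.76 against 14.6 and 15.1 CPM in SW620. Its additive call (0.87, SE 0.21, adjusted p = 0.036) was lost without SW480 caffeine replicate 2 or any SW620 library (adjusted p up to 0.171). The 10 fibroblast markers together, 4 of them tested, summed to 8.44 to 9.07 CPM in SW480 controls, 8.50 to 9.93 with caffeine, 38.9 to 41.4 in SW620 controls and 46.4 to 49.3 with caffeine, and the part of such cells in this result was not tested. In bulk RNA, fewer cells of a kind and less RNA per cell cannot be told apart. None of the leukocyte (5 tested) or endothelial (2 tested) markers was in the shared response by edgeR, with 0 and 1 at an unadjusted p under 0.05, and DESeq2 called 1 endothelial marker higher. Lists with no shared member by edgeR were NRF2 targets, cholesterol synthesis and uptake, circadian clock genes and the mitochondrially encoded mRNAs, with 2, 3, 2 and 0 genes higher and 1, 2, 2 and 2 lower at an unadjusted p under 0.05. DESeq2 called 1 NRF2 target higher and 1 mitochondrial mRNA lower among these 4 lists, and limma-voom called none. The mitochondrial mRNAs had the same sign in the lines in 11 of 13 genes, with median changes of -0.75 in SW480 and -0.35 in SW620. Without SW480 caffeine replicate 2, the library low in mitochondrial reads, 3 of them were shared fallers, without SW480 caffeine replicate 1 there were 2, and without any other library there were 0.

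**Figure D3:**
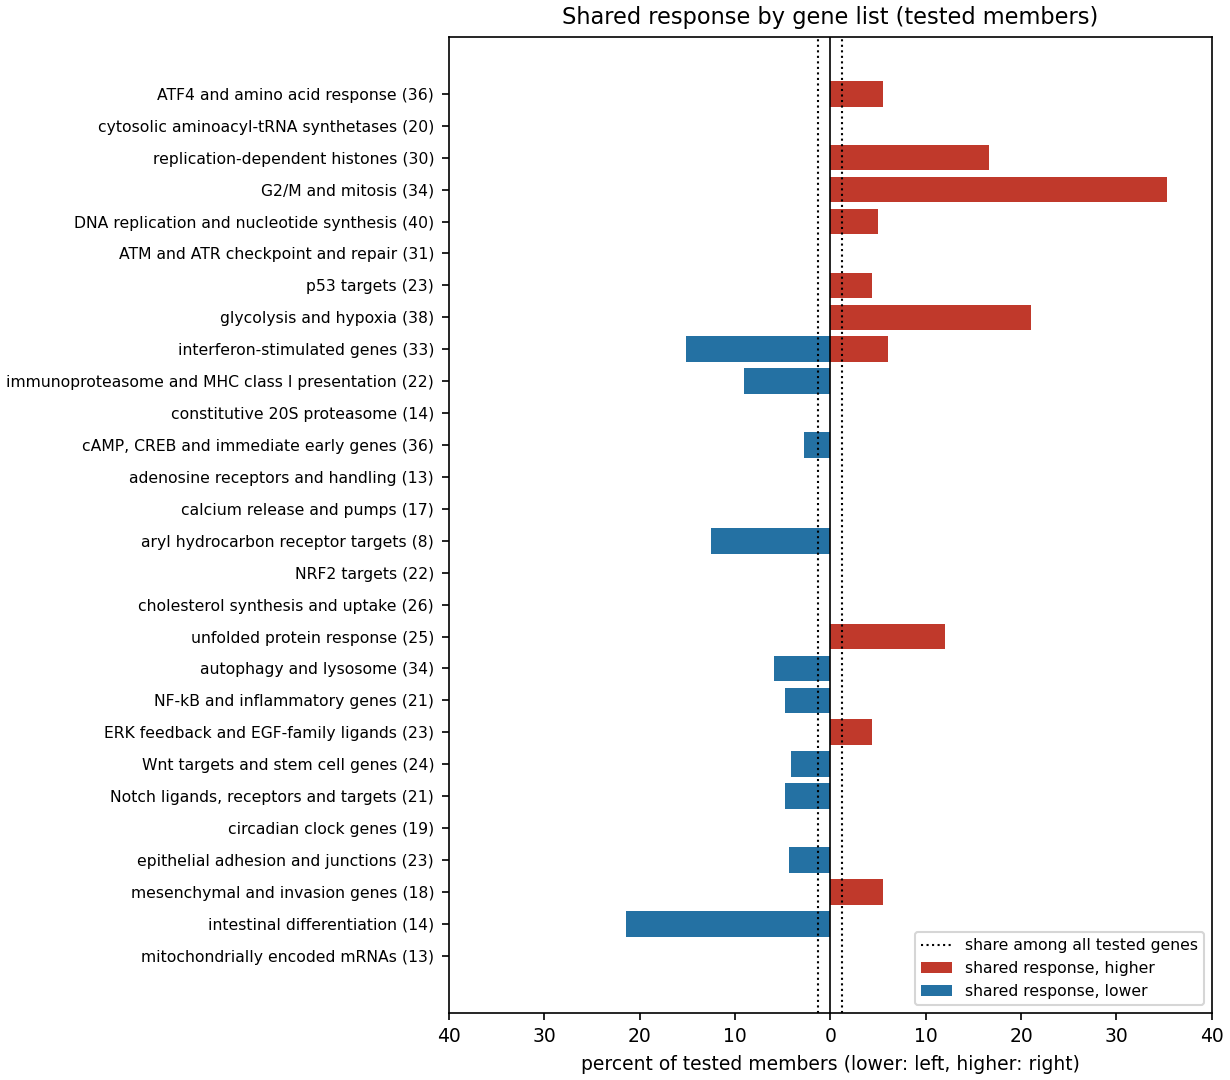
Percent of the tested members of each gene list other than the cell type marker lists (number tested in brackets) that were in the shared response, higher to the right in red and lower to the left in blue; dotted lines mark the shares over all tested genes, 1.26% higher and 1.28% lower. The longest bars are G2/M and mitosis (12 of 34 higher), intestinal differentiation (3 of 14 lower) and glycolysis and hypoxia (8 of 38 higher), and lists of under 15 genes move by large steps.

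Promoters were compared for what members share beyond their values. RefSeq promoter sequences (GRCh38.p14, the 250 bases before the start, both strands) were matched for 170 of 201 protein-coding risers (84.6%) and for 10993 of 13477 protein-coding tested genes (81.6%). The letters CCAAT occurred in 85 of the 170 risers (50%), against 34.9% of all those promoters. Without the members of the histone, G2/M and replication lists the shares were 47.1% of 153 risers and 34.6% of all. The other letters searched were the cAMP response element TGACGTCA, in 1.18% of risers against 2.79% of all, the E-box CACGTG, in 6.47% against 8.71%, and the ATF4-type element TGATGNAA, in 1.76% against 1.40%. For the fallers the same check is void, since 144 of 189 (76.2%) had a promoter in the table. These shares are descriptions, in which base composition was not matched.

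By gene type, 398 of the 449 members (88.6%) were protein-coding, against 77.2% of tested genes, and 40 (8.91%) were long noncoding RNAs, against 15.4%. Of the noncoding members 12 rose and 28 fell. LINC00868 had 14.8 and 21.6 against 9.91 and 8.94 CPM in SW480 and 4.00 and 4.51 against 2.56 and 1.61 CPM in SW620 (additive change -0.99, SE 0.18, adjusted p = 0.00942), and LASTR had 2.06 and 2.04 against 3.99 and 3.45 CPM and 4.05 and 4.91 against 9.47 and 8.76 CPM (0.95, SE 0.16, adjusted p = 0.00805). Each kept its additive call with any library left out, while the SW480 change of LASTR, 0.85, was not called on its own (adjusted p = 0.0602).

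Sharing a direction did not mean sharing a size. The SW620 change was the larger in 296 of the 449 members (65.9%), a share not computed over all tested genes. As 268 members were called within SW620 only, that share can describe the choice of members. The difference itself was called in 50 members (11.1%), against 6.71% of all tested genes. Of these, 32 rose more in SW620, 2 rose more in SW480, 9 fell more in SW620 and 7 fell more in SW480. Over all tested genes the SW620 effect lay above that of SW480 in 4.24% and below it in 2.47%.

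Much of the membership was lost when a single library was left out. With each of the 8 libraries left out in turn, 86 of the 449 genes (35 higher, 51 lower) stayed in the shared response throughout, and 12 of the 101 genes called in each line did. Without an SW480 library 279 to 377 of the 449 were kept, the 279 without caffeine replicate 2, the library low in mitochondrial reads. Without an SW620 library 108 to 157 were kept, the 108 without caffeine replicate 1. Of the 101 genes called in each line, 19 were kept without SW480 caffeine replicate 2, 34 without SW620 control replicate 2, 38 without SW620 control replicate 1, 45 without SW480 control replicate 1, 48 without SW620 caffeine replicate 2 and 59 without SW620 caffeine replicate 1.

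**Figure D4:**
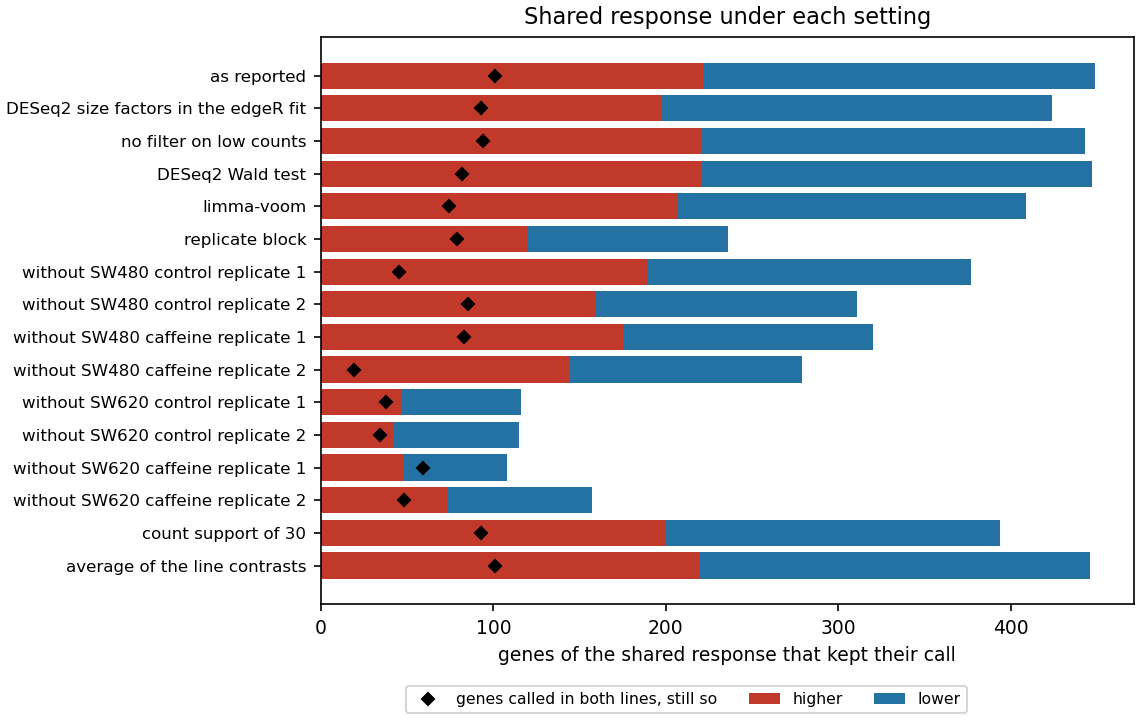
Genes of the shared response that kept their call under each setting, stacked as higher (red) and lower (blue), with diamonds for the genes called in each line that were still called in each line; the x axis counts genes. The bars fall from 449 as reported to between 108 and 157 when an SW620 library is left out, and the diamonds to 19 without SW480 caffeine replicate 2.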

How the data were processed

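Poly-A RNA of 8 libraries was read as 75 bp single-end reads on a NextSeq 500 after a directional library kit, from RNA with an integrity number of at least 8, per the labels' protocols. The authors deposited raw counts of reads per Ensembl gene, and the submitters' processing notes list hg38 with featureCounts 2.0.5, STAR 2.7.3a and an unversioned Trim Galore. The strand setting and the annotation release are not given in the sources used here. Without the strand setting, reads of overlapping antisense genes cannot be told apart. This bears on 27 of 75 named genes, and 10 share exon bases on their own strand (GENCODE 29, which held 71 of the 75).

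Each file held 62649 genes (62625 paired with a symbol), and its assignment totals were left out. Libraries held 15760259 to 23269315 counts. Tests used edgeR 4.0.16 in R 4.3.3 with filterByExpr by group (17671 genes left), TMM scaling and robust quasi-likelihood F tests, with Benjamini-Hochberg adjustment over all tested genes. An additive fit (line and treatment) and a fit with 1 mean per group used all 8 libraries, and the biological coefficient of variation was 13.8% and 10.5%. No replicate block was used. SE is the size of the change divided by the square root of F. The scripts were tested on simulated data.

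Members, gene lists, naming rule and tests were chosen with earlier results of these data known. The rule named up to 15 risers and 15 fallers with the largest smaller within-line change (mean log2 CPM of at least 1, libraries not overlapping in either line), the 10 genes per direction called in each line with the largest smaller change, up to 4 members of each of 32 lists, and PSMB8, PSMB9 and PSMB10. Other genes were named after their values were seen, as was the choice to compare promoters over protein-coding genes. Alternatives were DESeq2 size factors, no filter, DESeq2 1.42.0, limma-voom (limma 3.58.1), a replicate block, the average of the within-line contrasts, each line fitted alone, a support of 30 counts, and each library left out.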

Additional observations from a re-analysis of the deposited data

Results flagged for a closer look

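In 50 genes of the shared response the caffeine effect passed the test of the difference between the lines (adjusted p under 0.05, edgeR, SW620 minus SW480). Among the genes named by the rule with such a difference, the rise was larger in SW620 by 1.74 for ENSG00000272468, 1.69 for RAET1L, 1.42 for H1-2, 0.77 for H2AC6, 0.94 for CDC25C, 0.59 for HK2 and 0.71 for HSPA5 on the log2 scale. Among genes named outside the rule it was larger in SW620 by 1.03 for SLC2A1, 0.86 for DLGAP5, 0.84 for PDK1, 0.78 for GPI and 0.67 for HMMR. DDIT4 rose less in SW620 (-0.59). Of the fallers, LGR5 (-0.97) and COL27A1 (-0.77) fell more in SW620, and CEACAM1 (1.05) and MUC13 (0.88) fell more in SW480. Outside the shared response, H2BC11 differed by 2.29, with a rise called in each line, and PSMB9 by -1.49, with opposite signs in the lines.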

How the results depend on the processing

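None of the 75 genes named by the rule changed direction in the alternatives run gene by gene, which leave out the support of 30 counts and each line fitted alone, and 36 of the 71 members among them kept their call under all of these. Without the filter on low counts the additive calls were 732 higher and 534 lower, the shared response 538 and 385, and the genes called higher in each line 76. DESeq2 gave 454 lower additive calls and a shared response of 368 higher and 399 lower. The average of the within-line contrasts gave 938 and 725 calls and a shared response of 753 and 644. Of the 449 members 443, 447 and 446 were kept under these 3, so that they mainly added genes. No paired reading of the replicate numbers was found, with correlations of same-numbered deviations from -0.189 to 0.0265 between groups, and with the replicate block the additive calls were 165 higher and 152 lower and the shared response 120 and 116. The cause of these shifts was not tested.

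With each library left out in turn, the additive calls ran from 66 to 445 higher and from 74 to 335 lower, and the shared response from 42 to 352 higher and from 61 to 266 lower. Genes called in each line ran from 10 to 93 higher and from 10 to 96 lower, the 10 and 10 without SW480 caffeine replicate 2. Called differences between the lines ran from 451 to 2188. A group left with 1 library is assumed to vary like the others. With DESeq2 size factors, limma-voom and a support of 30 counts these counts stayed within 1.5 times. In SW480 the coefficient of variation was 13.1% and in SW620 7.0%, each line fitted alone, and 73 of the 101 genes called in each line were then kept.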
